A study of Mus musculus with 2 samples.

Results

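Endothelial cells made up 270 of the 9331 cells that passed the quality filter in 2 droplet single-cell RNA libraries of mouse ciliary body. They were chosen by their own RNA: among barcodes with 500 or more genes detected and no more than 30% of counts from mitochondria, a cell counted as endothelial when at least 3 of 8 endothelial genes (Cldn5, Egfl7, Cdh5, Pecam1, Flt1, Emcn, Plvap and Ptprb) were detected with at least 5 UMIs in sum. A UMI is a molecular identifier, so 1 UMI stands for 1 captured RNA molecule. Library 1 held 157 endothelial cells among 3865 (4.06%, exact Clopper-Pearson 95% interval 3.46 to 4.73%), and library 2 held 113 among 5466 (2.07%, interval 1.71 to 2.48%). These intervals cover counting error only. Members with a Prox1 UMI, a Flt4 UMI or at least 3 Ccl21a UMIs, genes known from lymphatic and Schlemm canal endothelium, were described apart from the rest: 127 cells, 82 of 157 in library 1 (52.2%, interval 44.1 to 60.3%) and 45 of 113 in library 2 (39.8%, interval 30.7 to 49.5%). Because these genes selected the cells, their levels below are a description and were not tested.

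Wild-type C57BL/6 mice, at postnatal day 35, were the source of both libraries, with no treatment and no second genotype. The study surveyed the cell types of the ciliary body, the ring of vascular, pigmented and secretory tissue behind the iris. Each library pooled tissue from several animals' eyes: 3 sets for library 1, and for library 2 either 3 or 4, since its labels give both numbers. The tissue was dissected, digested with collagenase and DNase and dissociated before capture, so what reached the droplets depends on how well each vessel type came apart.

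The vessels of this region differ in a way that endothelial RNA can show. Capillaries of the ciliary processes and the choroid are fenestrated: their pores are closed by diaphragms built from the Plvap protein, and plasma filters through them to supply the fluid that becomes aqueous humour. Capillaries of the iris and retina are closed by tight junctions and carry selective transporters, the blood-ocular barrier. Aqueous humour leaves through Schlemm canal, a vessel of venous origin that takes on Prox1 and Flt4, the transcription factor and VEGF-C receptor of lymphatic endothelium, without becoming a full lymphatic vessel.

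The 3 groups compared within the endothelium were the 127 cells with Prox1, Flt4 or Ccl21a, the other members with at least 1 Plvap UMI (54 in library 1 and 40 in library 2), and the other members with none (21 and 28). Medians per cell were 5837 and 5013 UMIs for all members in libraries 1 and 2, against 4128 and 2968 for all cells. The 2 libraries shared 11 barcodes, none of them belonging to a member in both. No doublet caller was run. Instead, members that also met the rule of another cell class were counted as candidate doublets: 42 in library 1 and 39 in library 2, of which 26 and 17 met the rule for mural cells, 22 and 19 that for fibroblasts, 1 and 23 that for rods, and 2 and 5 that for macrophages. There were 18 and 22 members above 20000 UMIs. Rod photoreceptors, which should lack endothelial RNA, served as the measure of RNA from other cells: rods had medians of 1162 and 2114.5 UMIs.

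The genes that selected the cells are given first, by role, as a description. Cldn5, the main claudin of endothelial tight junctions, stood at 1414 and 753.6 CPM (UMIs of the gene per 1000000 UMIs of the summed cells) in the members of libraries 1 and 2, against 2.05 and 2.22 CPM in all other cells. Cdh5, the VE-cadherin of endothelial adherens junctions, stood at 444.8 and 175.7 CPM against 2.26 and 2.04. Pecam1, an adhesion molecule of the same contacts, stood at 245.8 and 116.4 CPM against 1.28 and 2.36. In each case library 1 was the higher. Ptprb, the phosphatase that holds the Tek receptor in check, was at 531.8 and 245.6 CPM in members against 1.23 and 1.00 outside. Flt1, a VEGF receptor that acts largely as a decoy, was at 927.1 and 464.3 CPM against 20.4 and 39.4. Egfl7, a secreted protein of the vessel wall, was at 2267 and 558.1 CPM, and Emcn, a sialomucin of capillary and venous endothelium, at 1363 and 354.9 CPM. Plvap was at 1338 and 412.1 CPM in members and at 8.36 and 9.72 CPM outside. It was detected in 125 of 157 and 70 of 113 members.

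**Figure D1:**
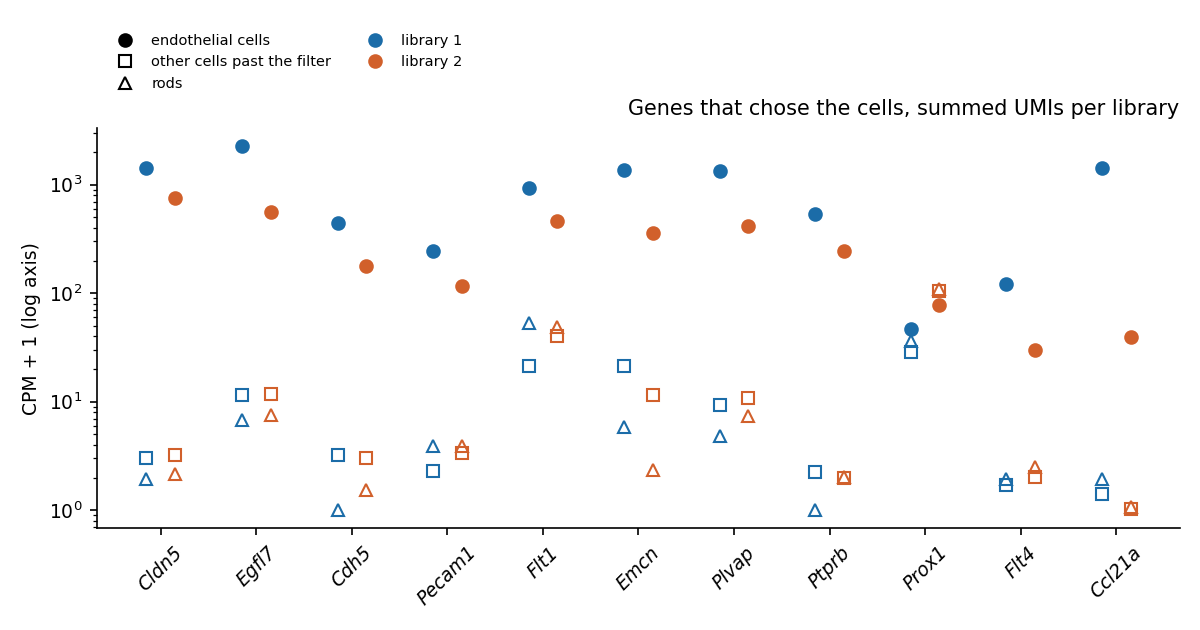
Level (CPM + 1, log axis) of the 8 genes of the selection rule and of Prox1, Flt4 and Ccl21a in endothelial members (filled circles), all other cells (open squares) and rods (open triangles), with 1 colour for each library. Cldn5 stood at 1414 and 753.6 CPM in members and at 2.05 and 2.22 outside, while Prox1 in members (45.5 and 76.9) lay among the values of the other cells (27.8 and 103.1).

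The members were not equally rich in these genes. All 8 were detected in 58 members of library 1 and in 18 of library 2, and the median sum of the 8 was 54 UMIs in library 1 and 28 in library 2. Just inside the rule, 3 and 19 members had exactly 3 of the genes, and 3 and 18 had 5 to 9 UMIs in sum. Just outside it, 6 and 30 cells had 2 of the genes with at least 5 UMIs, and 7 and 16 cells had at least 3 of the genes with 4 or fewer UMIs. Library 2 thus had more cells on both sides of the limit.

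Emcn lies on chromosome 3 of the GRCm38 mouse genome. Its promoter is shown because it is a gene of the selection rule that carries matches to the core of ETS binding sites, the motif of the factors Erg, Fli1 and Ets1. The window runs from 250 bases before to 50 after the transcription start (RefSeq, GRCm38.p6, chr3:137340828-137341127, plus strand), and capitals mark AGGAAG or its reverse complement CTTCCT.
Emcn: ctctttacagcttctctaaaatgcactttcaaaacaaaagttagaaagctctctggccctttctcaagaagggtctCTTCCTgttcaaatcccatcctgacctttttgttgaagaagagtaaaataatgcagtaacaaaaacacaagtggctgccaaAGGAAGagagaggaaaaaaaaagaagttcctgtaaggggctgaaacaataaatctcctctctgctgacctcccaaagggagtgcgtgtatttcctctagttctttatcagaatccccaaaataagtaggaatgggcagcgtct
The motif, searched on both strands, had 2 matches there. It occurred in 3 of the 4 selection genes present in the promoter table and in 11611 of all 32841 promoters of this length (35.4%), so its presence in these few windows is a description only.

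Beyond the rule, the members carried the receptors of blood vessel growth. Kdr, the main signalling VEGF receptor, stood at 950.2 CPM in members of library 1 and 209.6 in library 2, against 22.9 and 35.2 outside. The angiopoietin receptor Tek stood at 229.3 and 71.3 CPM against 2.46 and 0.786, and its partner Tie1 at 251.7 and 73.4 CPM against 0.564 and 0.500. All were higher in library 1, as were the selection genes. The co-receptor Nrp1 stood at 823.0 and 332.3 CPM in members against 153.3 and 75.0 outside.

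Transcription factors of the endothelial lineage followed. Sox18 was at 334.7 and 88.9 CPM in members against 0.615 and 0.214 outside, and Sox17, a factor of arterial and barrier endothelium, at 74.5 and 48.7 CPM against 0 and 0.179. The flow-responsive factor Klf2 was at 1309 and 661.2 CPM against 263.8 and 169.3. Klf4, its relative, was at 254.4 and 335.9 CPM against 97.1 and 87.5. For ETS factors, Fli1 was at 104.1 and 51.5 CPM and Erg at 67.9 and 31.1. Of the Notch genes, the ligand Dll4 had 122 and 55 UMIs in members (80.4 and 38.8 CPM) against 0.0513 and 0.465 CPM outside, while the arterial connexin Gja5 had 0 UMIs in the members of both libraries. Of the genes tied to cell division, Mki67 had 1 and 2 UMIs, Top2a 0 and 5 and Birc5 1 and 21 over all members.

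Early-response genes, which tissue digestion is known to raise, were abundant in members and other cells alike. Fos was at 1132 and 2556 CPM in members and at 1080 and 1384 CPM outside. The heat-shock gene Hspa1a was at 201.0 and 721.1 CPM in members against 132.1 and 341.7 outside. Both were higher in library 2, in members and in other cells. Their part in the differences between libraries was not tested.

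The group set apart by Prox1, Flt4 or Ccl21a was a mixture. Prox1 was detected in 20 and 23 of its cells, Flt4 in 75 and 28, and at least 3 Ccl21a UMIs in 8 and 2. The largest portion, 61 of 82 cells in library 1 and 21 of 45 in library 2, had Flt4 but no Prox1 and under 3 Ccl21a UMIs. All 3 genes met in 7 cells of library 1 and 1 of library 2. Median depth was 7665.5 and 8758 UMIs in the group, against 5058.5 and 4667.5 in the Plvap-positive and 2106 and 2287.5 in the Plvap-negative cells, and a deeper cell has more chances to show a rare transcript. When every cell was thinned to 2000 UMIs, the share of members in the group was 27.3% (36 of 132 deep enough) in library 1 and 20.2% (18 of 89) in library 2.

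**Figure D2:**
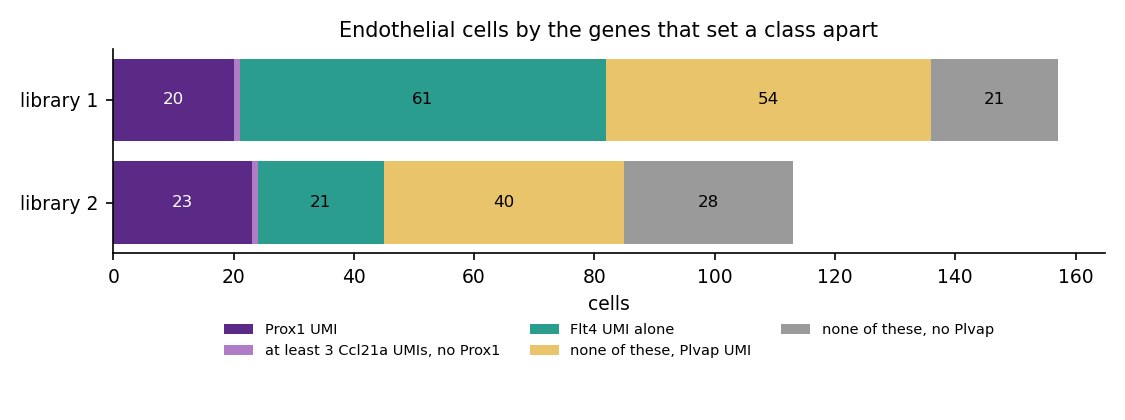
Number of endothelial members in each library, split into the cells with Prox1, Flt4 or Ccl21a by which gene placed them there and the other cells by Plvap. Cells placed by Flt4 alone were the largest portion of the first group in library 1 (61 of 82), and 23 of 45 cells in library 2 carried Prox1.

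Prox1 has to be read against its level elsewhere, since neurons and glia of the retina also express it. In library 2 its level was 76.9 CPM in members, 103.1 CPM in all other cells and 109.1 CPM in rods. After thinning to 2000 UMIs, 12.4% of members and 12.5% of rods of library 2 had a Prox1 UMI (20.4% and 14.2% before thinning). The lymphatic-like cluster described below was an exception in library 2, with Prox1 in 7 of its 8 cells at 423.4 CPM. In library 1 the thinned shares were 9.85% of members and 6.25% of rods (12.7% and 3.62% before thinning). Flt4 behaved differently: thinned shares were 19.7% of members against 0 of 128 rods in library 1, and 10.1% against 0.160% in library 2. Ccl21a, a chemokine of lymphatic endothelium, was found in 5.30% and 3.37% of thinned members and in none of the thinned rods.

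The cells with Prox1 and under 3 Ccl21a UMIs differed between the libraries. In library 1, Npnt, an integrin ligand of the extracellular matrix and a known gene of Schlemm canal, was at 540.9 CPM in them and Nts, the neurotensin precursor, at 311.8 CPM. In library 2 they were at 26.2 and 35.6 CPM. There the bipolar-cell gene Pcp2 stood at 1385 CPM, against 6.36 CPM in library 1. Of the cells with Prox1, 12 in library 2 also met another class's rule, 8 of them that for rods, against 2 and 0 in library 1. Median depth in the cells with Prox1 was 14944 UMIs in library 2 and 6964 in library 1. The part of retinal RNA in these cells was not tested beyond these values.

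The cells placed by Flt4 alone are given by their summed levels. Plvap was at 1990 and 948.0 CPM in the Flt4-only cells, Kdr at 1489 and 510.8 CPM and Igfbp3, a secreted binding protein of insulin-like growth factors, at 1330 and 595.9 CPM. Plvap was detected in 53 of 61 and 15 of 21 of them, beside 125 of 157 and 70 of 113 of all members. Lyve1, the hyaluronan receptor of lymphatic vessels, was at 3.04 and 7.74 CPM. Of these cells 25 in library 1 and 8 in library 2 met another class's rule. In the clusters described next, 22 of them fell in cluster 2, 19 in cluster 8, 11 in cluster 1 and 2 in the lymphatic-like cluster.

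Against the remaining endothelial cells, the whole group showed no gene that passed the test. With edgeR's quasi-likelihood test on counts summed per group and library, 0 of 10198 genes were called higher (0% of those tested) and 0 lower (0%), at a Benjamini-Hochberg adjusted p under 0.05 with a fold of at least 2 (1 on the log2 scale). There were 835 genes at an unadjusted p under 0.05, and DESeq2 called 60 (8 higher and 52 lower). Of the 21 lymphatic genes tested, 0 were called, 17 had a fitted value above 0, and the median log2 fold was 1.04 against 0.09 over all genes tested. Of the 14 Schlemm canal genes, 0 were called and 7 were above 0, with a median of 0.04. The capillary list had a median of 1.45, with all 13 of its tested genes above 0 and 0 called. Without the candidate doublets its median was 0.77, with 9 of 11 genes above 0. Rod and pigment-cell markers summed to 6122 and 6050 CPM in the group in library 2. Haemoglobin summed to 6402 CPM in library 1, with 63.8% of its UMIs in 1 cell. The part of this other-cell RNA in these values was not tested.

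Clustering the 270 members by their variable genes gave 11 clusters, which are described but not tested, since the same genes formed them. A cluster was named by a rule written after the clusters were seen. At least 3 markers of a vessel type had to stand at 100 CPM or more and at least 3 times their median over the other clusters. At least 1 marker of that type had to be among the cluster's 10 leading genes, ranked by fold over that median. No class of other cells, such as rods or red cells, could have more markers among those leading genes. There were 3 that could be named.

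The fenestrated capillary-like cluster (cluster 2) held 49 cells, 48 of them from library 1. Plvap was at 3918 CPM in it, Rgcc at 2784, Igfbp3 at 2385 and Kdr at 2079. The capillary genes Esm1 (endocan), Gpihbp1, which holds lipoprotein lipase on the capillary wall, and Cd300lg were at 611.7, 536.3 and 310.3 CPM. The hedgehog ligand Ihh was at 367.9 CPM and led the cluster. Of its cells, 22 were set apart by Flt4 alone and 26 were Plvap-positive members without Flt4. Being drawn from 1 library, this cluster may follow that library as much as a cell type. A second set of cells high in Plvap (2438 CPM) had 26 of 31 cells from library 2 and was led by rod genes, and stayed unnamed.

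The barrier capillary-like cluster (cluster 10) held 14 cells (11 and 3), and 6 of 10 barrier markers stood out in it. So did 4 of 9 arterial, 3 of 8 fenestrated capillary and 2 of 8 venous markers. Cluster 10 had Slc2a1, the glucose transporter GLUT1, at 1273 CPM and Slco1a4, an organic anion transporter, at 1022 CPM. Cxcl12, a chemokine of arterial and capillary endothelium, was at 3263 CPM. The arterial genes Gja4, Sox17, Sema3g and Hey1 stood there at 268.9, 251.0, 215.1 and 143.4 CPM. Plvap was at 1004 CPM, so barrier transporters and Plvap were found in the same cluster. A larger cluster of 46 cells (cluster 1, 19 and 27 cells) had all 10 barrier markers, with Itm2a at 3282 CPM, Spock2 at 2514, Slco1a4 at 1842 and Mfsd2a, a lipid carrier of barrier endothelium, at 250.6, and Plvap at 8.35 CPM. It stayed unnamed because haemoglobin genes led it, with Hbb-bs at 35300 CPM. Of its haemoglobin UMIs 52.2% lay in 1 Plvap-negative cell of library 2, the median over its cells was 0, and without that cell Hbb-bs was at 19460 CPM.

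Of the 8 venous markers, 4 stood out in a cluster of 18 cells (cluster 6, 5 and 13 cells). The chemokine-binding receptor Ackr1 was at 124.0 CPM, Vwf, the clotting protein von Willebrand factor, at 504.4, the leukocyte adhesion molecule Vcam1 at 124.0 and Lrg1 at 694.6. Vwf was higher in clusters 1 and 10 (780.9 and 752.9 CPM), and Vcam1 was at 139.6 CPM in the fibroblast-led cluster. Pigment-cell genes stood among the leading genes of cluster 6, with Tyrp1 at 421.7 CPM, and it stayed unnamed. The others were led by genes of other cells: fibroblast genes in 29 cells, all of which met another class's rule, Spp1, haemoglobin and mural genes in the 22 cells of cluster 8, which all did so too, retinal pigment epithelium genes in 13, macrophage genes in 6, and bipolar and photoreceptor genes in 8. The last of these came from library 2 alone, had a median of 38020 UMIs and held 7 cells with Prox1. In cluster 8, 6 of 8 fenestrated capillary markers also stood out, with 0 of them among its 10 leading genes. Of the haemoglobin UMIs of cluster 8, 90.8% lay in 1 cell. The median over its cells was 0, and without that cell Hbb-bs was at 104.6 CPM.

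**Figure D3:**
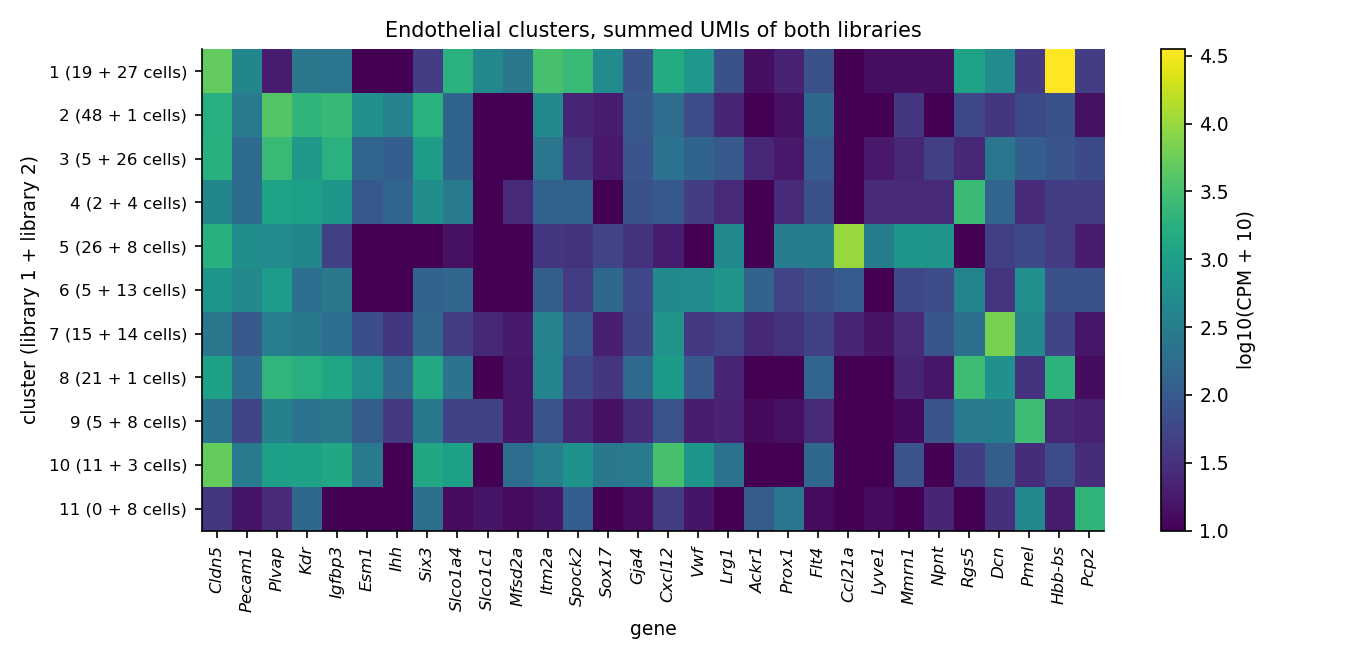
Level of vessel-type and other-cell genes (columns) in the 11 clusters of endothelial members (rows, numbered 1 to 11, with the cells from library 1 and library 2), coloured by log10(CPM + 10) of the summed UMIs. Plvap, Kdr and Igfbp3 were high in cluster 2, Slco1a4 and Spock2 in clusters 1 and 10, and Ccl21a and Npnt in cluster 5.

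The lymphatic-like cluster (cluster 5) held 34 cells, 26 from library 1 and 8 from library 2, and 8 of 9 lymphatic markers stood out in its summed UMIs. Lyve1, Reln and Thy1 were found in only 4, 5 and 6 of the 26 cells of library 1. In library 2 they were found in 0 of 8 cells, so the name describes the sum and not each cell. Of its cells, 21 had Prox1, 8 had at least 3 Ccl21a UMIs and 0 met another class's rule. Vwf and Ackr1 had 0 UMIs. Of the 8 Schlemm canal markers, 4 stood out: Prox1, Flt4, Npnt and Itga9, an integrin that forms lymphatic valves and binds matrix.

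Inside the cluster, the cells of library 1 fell apart by Ccl21a. The 6 cells with at least 3 Ccl21a UMIs had Ccl21a at 45540 CPM, Mmrn1 (multimerin, a lymphatic matrix protein) at 3081, Lyve1 at 1393, Reln, the secreted glycoprotein reelin, at 949.7, Thy1 at 633.1 and Pdpn, the podoplanin of lymphatic vessels, at 253.3. The other 20 cells had 0 UMIs of Ccl21a, Lyve1, Reln and Pdpn in 129262 UMIs, and Mmrn1 at 100.6 CPM. Flt4 was at 1034 CPM in the 6 and at 77.4 in the 20, and Prox1 at 485.4 and 185.7. These 20 cells had RNA of their own: Npnt was at 974.8 CPM and found in 18 of them, against 63.3 CPM in the 6, and Slco2a1, a prostaglandin transporter, was at 479.6 against 63.3. The stress-response regulator Nupr1 was at 1184 CPM against 295.5, and Tek at 201.1 against 42.2. Nts was at 549.3 CPM in the 20, while of the 17 Nts UMIs in the 6 cells 16 lay in 1 cell. Plvap was at 557.0 CPM in the 20 and at 295.5 in the 6. Median depth was 4804.5 and 4052 UMIs, so depth was close. That cell held 24092 of the 47383 UMIs of the 6 and 35 of their 49 Flt4 UMIs. Without it, and without 1 cell of 29630 UMIs among the 20, a limit of 20000 UMIs chosen after seeing the data, Ccl21a was at 48900 CPM, Mmrn1 at 2662 and Lyve1 at 1030 in the remaining 5. Flt4 was then at 601.1 CPM in the 5 and 80.3 in the 19, Npnt at 42.9 and 993.7, and Nts at 42.9 and 582.1.

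**Figure D4:**
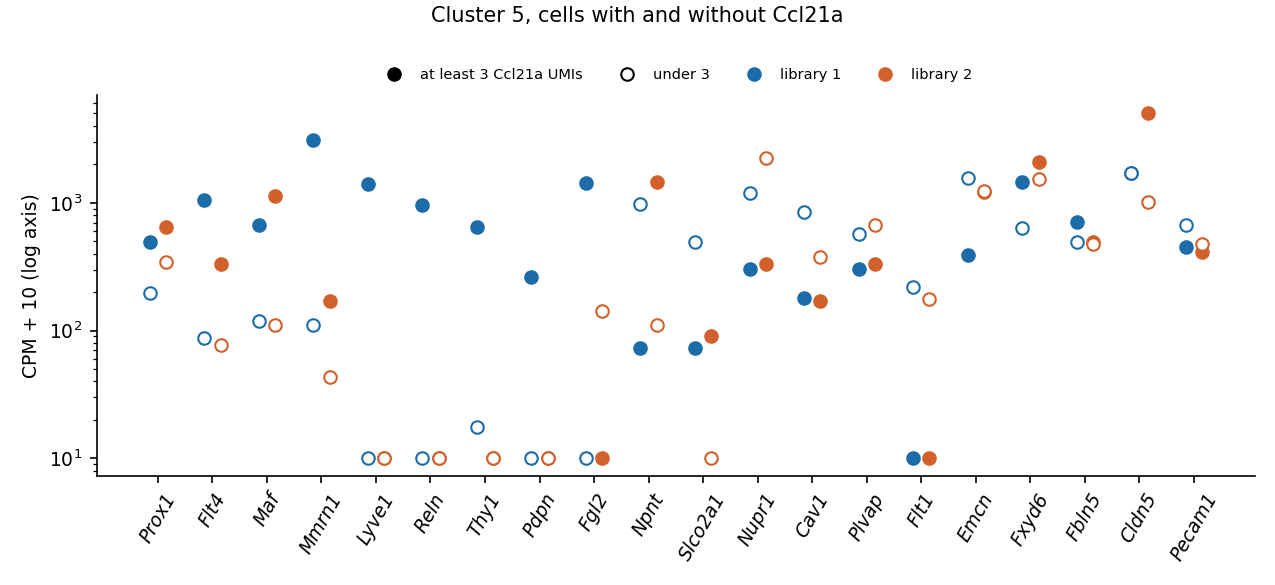
Level (CPM + 10, log axis) of endothelial, lymphatic and Schlemm canal genes in the cells of the lymphatic-like cluster with at least 3 Ccl21a UMIs (filled; 6 cells in library 1 and 2 in library 2) and with fewer (open; 20 and 6 cells). In library 1 Lyve1 and Reln stood at 1393 and 949.7 CPM in the 6 cells and had 0 UMIs in the 20, while Npnt stood at 63.3 and 974.8 CPM.

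In library 2 the same split gave 2 and 6 cells, too few to describe beyond their counts. Prox1 was found in 1 of the 2 and in all 6, and Lyve1, Reln, Thy1 and Pdpn had 0 UMIs in both. Npnt had 18 UMIs in 1 of the 2 and 3 UMIs over the 6. The order of Npnt seen in library 1 did not return there. Ccl21a has near-identical copies, Ccl21b and Ccl21c, which had 0 counts, and how reads were divided among them is uncertain.

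A narrower group was formed after these values had been seen and is therefore described without a test: the members with Prox1 or at least 3 Ccl21a UMIs that met no other class's rule and held no more than 20000 UMIs, 17 cells in library 1 and 11 in library 2. Levels were compared in each library with the other endothelial cells left by the same limits. The log2 difference was taken from the mean of the log2 CPM of the Plvap-positive and Plvap-negative cells, whereas the CPM printed for the other cells pool them, so the printed pair can lie closer together or further apart than the log2 difference. Of 4569 genes, 118 were higher by at least 1 on the log2 CPM scale in each library (2.58%) and 104 lower (2.28%). Of 17 lymphatic genes measured there, 8 were higher in each library: Nts, Sema3d, Maf, Fxyd6, Pard6g, Ptx3, Cp and Sned1. Lyve1, Reln, Thy1, Pdpn and Mmrn1 were not among these 8. The connexin Gja1 was the 1 lower in each library, and the median log2 difference was 1.71 against 0.06 over all genes. This list too was chosen with earlier results of these data known. Prox1, Flt4 and Ccl21a are not among the genes counted.

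Fxyd6, a regulator of the sodium pump, was at 781.1 and 1291 CPM in this group against 71.9 and 9.58 in the other cells. Nupr1 was at 815.5 and 1257 CPM against 109.0 and 33.5. Maf, a transcription factor of lymphatic endothelium, was at 197.4 and 292.7 CPM against 46.4 and 47.9, and Nts at 291.8 and 464.9 against 58.0 and 0. Timp2, an inhibitor of matrix proteases, was at 652.4 and 757.6 CPM against 150.7 and 129.3, and Fbln5, an elastic-fibre protein, at 300.4 and 361.6 against 76.5 and 28.7. Of 16 basement membrane genes, 1 (Lamb1) was higher in each library and 0 lower, with a median of 0.07. Npnt was at 283.3 and 361.6 CPM against 187.8 and 28.7, with log2 differences of 1.02 and 3.21. Few cells carried some of these values. Of the 21 Npnt UMIs of the group in library 2, 18 lay in 1 cell. Of its 34 Nts UMIs in library 1, 20 lay in 1 cell and 13 in another. Its 27 Nts UMIs in library 2 were 19 in 1 cell and 8 in another.

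Lower in each library were the clotting and tone genes Vwf (42.9 and 17.2 CPM against 183.1 and 641.9) and Edn1, the endothelin precursor (25.8 and 0 against 78.8 and 297.0). Nrp1 was at 163.1 and 51.7 CPM against 1025 and 570.1. Of 12 genes of the BMP and TGF-beta response, 5 were lower in each library (Acvrl1, Bmpr2, Smad6, Smad7 and Id1) and 1 higher (Bmp4), with a median of -1.16. Id1, a direct target of BMP signals, was at 180.3 and 258.3 CPM against 632.9 and 517.4. Of 22 barrier genes, 5 were lower and 0 higher, among them Slc2a1 (223.2 and 275.5 CPM against 398.7 and 718.6, log2 differences -1.13 and -1.20). The limits were then lifted, so that candidate doublets and members above 20000 UMIs were both kept. Of the 39 genes followed, 23 moved by more than the spread between libraries, and 1 (Jund) changed sign on the mean of both libraries. Taken by library, 9 changed sign in library 2 (Fgl2, S100a6, Timp2, Fbln5, Prkcdbp, Maf, Jund, Six3os1 and Slc6a6) and 1 in library 1 (Aqp1). With those cells kept, the log2 differences of Timp2, Fbln5 and Maf in library 2 were -0.041, -0.76 and -0.011, so this group's values depend on which cells were left out.

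Among the members outside the Prox1, Flt4 and Ccl21a group, Plvap divided cells by barrier genes. With edgeR's quasi-likelihood test, 0 of 10198 genes were called higher in Plvap-positive cells (0%) and 5 lower (0.049% of those tested): Itm2a, Ly6c1, Pltp, Mal and Pglyrp1. There were 630 genes at an unadjusted p under 0.05, and DESeq2 called 38 (3 higher and 35 lower). The fit assumes that endothelial sums vary between libraries as those of mural cells, fibroblasts and macrophages do. Plvap-negative cells had under 50% of the depth of Plvap-positive ones, as a split by detection favours, and among cells with at least 2000 UMIs 4 of the 5 genes were called. Without library as a term in the fit, 0 genes were called.

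Itm2a, a membrane protein of brain and retinal vessels, was at 310.6 and 164.9 CPM in Plvap-positive cells of libraries 1 and 2 and at 2232 and 887.1 CPM in Plvap-negative ones. The log2 fold change was -2.64 (SE 0.32, edgeR's quasi-likelihood test, Benjamini-Hochberg adjusted p = 0.0188). Pltp, the phospholipid transfer protein, was at 189.8 and 188.5 CPM against 1287 and 830.6 (log2 fold change -2.45, SE 0.28, edgeR adjusted p = 0.0188). Ly6c1, a surface protein of capillary and arterial endothelium from a family of near-identical copies, was at 254.5 and 164.9 CPM against 1815 and 782.7 (log2 fold change -2.54, SE 0.27, edgeR adjusted p = 0.0188). For each gene both Plvap-positive values lay under both Plvap-negative values. Mal, a raft proteolipid that barrier endothelium shares with myelin, was at 10.8 and 23.6 CPM against 361.6 and 326.1 (log2 fold change -4.35, SE 0.59, edgeR adjusted p = 0.0399). Pglyrp1, a peptidoglycan-binding protein, had 2 UMIs in Plvap-positive cells and 71 in Plvap-negative ones, at 4.31 and 0 CPM against 292.1 and 126.1 (edgeR adjusted p = 0.0399).

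The barrier list as a whole lay on the same side. Of its 25 genes, 23 were tested, 3 were called lower (Itm2a, Ly6c1 and Pltp) and 0 higher. The median log2 fold was -2.64 against 0.04 over all genes, and 1 of the 23 lay above 0. Transporters that did not pass the test had values on that side too: Slco1a4 at 71.2 and 83.8 CPM against 1015 and 517.5, Slc16a1, the monocarboxylate transporter MCT1, at 25.9 and 96.9 against 632.9 and 743.6, and Slc2a1 at 222.1 and 214.6 against 681.5 and 791.4. Abcg2, a drug efflux pump, was at 215.7 CPM against 410.3 in library 1 and nearly level in library 2, at 214.6 against 226.1. The list was chosen with earlier results of these data known, so its direction is not independent evidence.

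**Figure D5:**
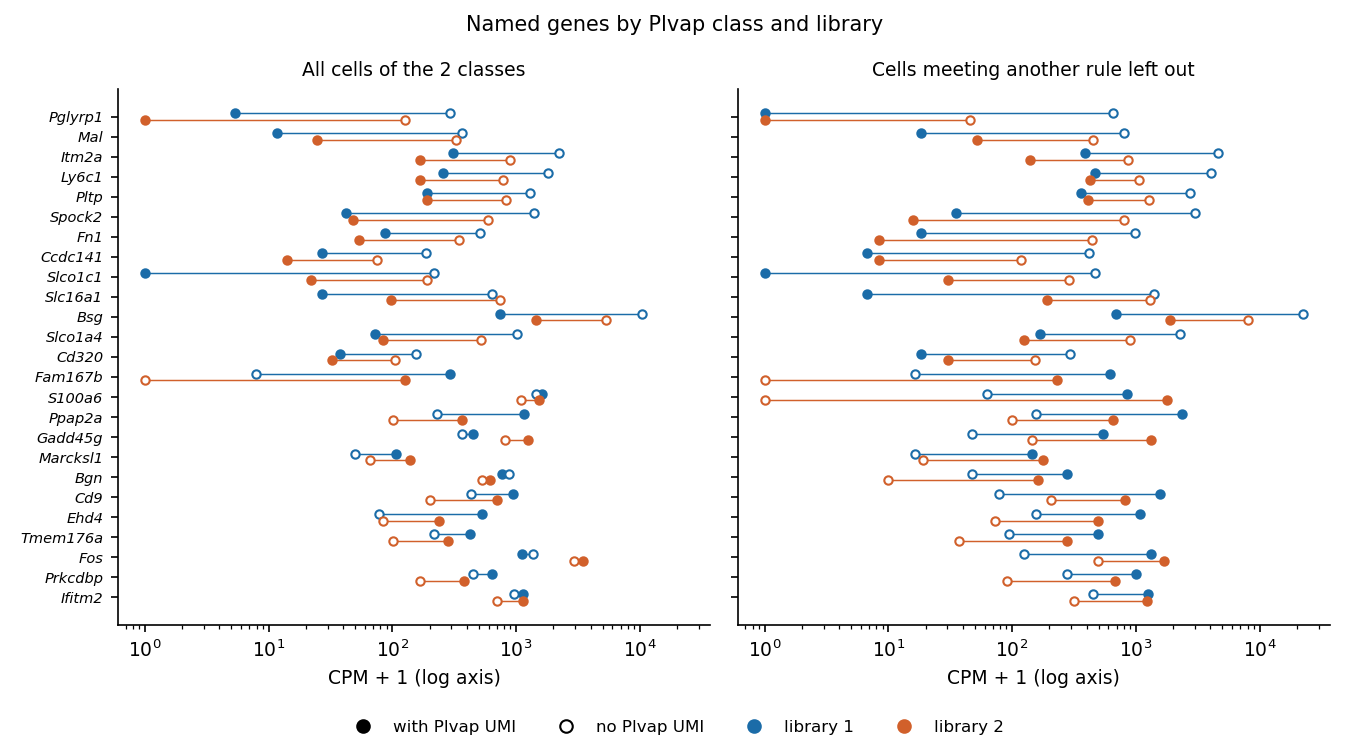
Level (CPM + 1, log axis) of the genes named for the Plvap split in members with a Plvap UMI (filled) and with none (open), with 1 colour for each library and a line joining the pair, for all cells (left) and without cells that met another class's rule (right). Itm2a, Pltp, Slco1a4 and Slc16a1 were lower in the Plvap-positive cells of both libraries in both panels, and Fos lay nearly level at the left (1113 and 3452 against 1370 and 2918 CPM).

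Other-cell RNA differed between these groups. The 8 fibroblast markers summed to 4007 and 4599 CPM in Plvap-positive and 8443 and 4649 CPM in Plvap-negative cells, and the 11 mural markers to 4430 and 1199 CPM and to 3950 and 1513 CPM. With the candidate doublets left out, the fibroblast sums were 224.4 and 125.0 CPM in Plvap-positive and 77.6 and 134.9 CPM in Plvap-negative cells, and the mural sums 63.3 and 110.3 CPM and 31.0 and 323.7 CPM. Rod and pigment-cell RNA was still present in library 2, with rod sums of 1699 and 1789 CPM and pigment sums of 4096 and 3093 CPM in the Plvap-positive and Plvap-negative cells. Pigment sums in library 1 were 2965 CPM in Plvap-positive and 69.5 CPM in Plvap-negative cells, and 149.6 and 93.1 CPM without the candidate doublets. Haemoglobin UMIs in Plvap-negative cells of library 2 numbered 7769, 84.4% of them in 1 cell, and without the candidate doublets haemoglobin was at 10920 CPM there against 125.0 CPM in Plvap-positive cells. The part of this RNA in the calls was not tested.

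Without the candidate doublets (42 and 27 Plvap-positive, 18 and 22 Plvap-negative cells), more genes passed. Of 5060 genes tested with edgeR, 13 were called higher (0.257%) and 16 lower (0.316%). Of 22 barrier genes, 8 were lower and 0 higher: Slc2a1, Slco1a4, Slco1c1, Slc16a1, Itm2a, Spock2, Bsg and Pltp. Their list's median was -3.44 against 0.02 over all genes, and 0 of the 22 lay above 0. Ly6c1 and Pglyrp1 no longer passed.

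Spock2, a proteoglycan of the testican family, was at 34.5 and 14.7 CPM in these Plvap-positive cells and at 3010 and 809.2 CPM in the Plvap-negative ones (log2 fold change -6.10, SE 0.90, edgeR adjusted p = 0.0229). Slco1a4 was at 166.8 and 125.0 CPM against 2265 and 899.1 (log2 fold change -3.35, SE 0.50, edgeR adjusted p = 0.0229). Slco1c1, a thyroid hormone transporter, had 4 UMIs against 62 (edgeR adjusted p = 0.0434). Each transporter was higher in both Plvap-negative sums than in either Plvap-positive one. Bsg, the basigin that brings MCT1 to the cell surface, was at 690.4 and 1875 CPM against 22390 and 8047 (log2 fold change -3.52, SE 0.55, edgeR adjusted p = 0.0229), and Slc16a1 itself at 5.75 and 191.2 CPM against 1412 and 1313. Cd320, the receptor that takes up vitamin B12, was at 17.3 and 29.4 CPM against 294.8 and 152.9. Fn1, the matrix protein fibronectin, had 4 UMIs against 113 (edgeR adjusted p = 0.0228).

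Itm2a, called with and without the doublets, lies on chromosome X, and its promoter is shown as that of a barrier gene lower in Plvap-positive cells (RefSeq, GRCm38.p6, chrX:107403311-107403610, minus strand). Capitals mark CTTCCT, the reverse complement of AGGAAG, whose 2 matches overlap.
Itm2a: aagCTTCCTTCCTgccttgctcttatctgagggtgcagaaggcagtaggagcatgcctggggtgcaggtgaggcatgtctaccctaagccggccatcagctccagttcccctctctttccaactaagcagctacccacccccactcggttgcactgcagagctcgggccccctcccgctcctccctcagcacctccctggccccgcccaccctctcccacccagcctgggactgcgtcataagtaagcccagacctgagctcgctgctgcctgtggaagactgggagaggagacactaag
Of 13 genes called lower that were searched, 11 were in the promoter table. The ETS core lay in 7 of these promoters, against 35.4% of all promoters. CTTTGA or its reverse complement TCAAAG, the core of the sites of the Wnt effectors Lef1 and Tcf4, lay in 4, against 16.0% of all promoters. With so few promoters neither share is read as a difference.

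Genes higher in the Plvap-positive cells without doublets belonged to several groups. Ehd4 and Prkcdbp (cavin 3), which shape membranes at caveolae, were at 1076 and 492.7 CPM against 155.2 and 71.9, and at 1001 and 676.5 CPM against 279.3 and 89.9 (log2 fold changes 2.82, SE 0.46, and 2.33, SE 0.39, edgeR adjusted p = 0.0292 and 0.0346). They were the 2 called of 8 caveolae genes. Fam167b had 139 UMIs against 1, at 621.3 and 227.9 CPM against 15.5 and 0 (edgeR adjusted p = 0.0229). Ppap2a, a phosphatase of signalling lipids, was at 2376 and 654.4 CPM against 155.2 and 98.9, and the tetraspanin Cd9 at 1582 and 816.2 against 77.6 and 206.8. Kdr, at 1461 and 345.6 CPM against 341.3 and 107.9, and Esm1, at 161.1 and 183.8 against 0 and 8.99, did not pass. Of the 11 capillary genes, 0 were called and 10 lay above 0, with a median of 1.96. Fos, the early-response gene, was called higher at 1323 and 1699 CPM against 124.1 and 494.5, although with the doublets kept it was at 1113 and 3452 CPM against 1370 and 2918. In the cells without doublets 18 of the 19 digestion-response genes lay above 0, with a median of 1.25. How far digestion moved with the Plvap split was not tested beyond these values.

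Mural cells, the pericytes and smooth muscle that wrap the same vessels, gave the outside comparison. The test set the members without Prox1, Flt4 or Ccl21a against 33 and 21 mural cells. Their Plvap-positive and Plvap-negative groups were weighted equally, as in the test of the Prox1, Flt4 or Ccl21a group. The CPM printed for endothelial cells in this comparison pool both groups, so a printed pair can differ from the fitted fold. Of 10190 genes, 48 were called higher in endothelial cells (0.471%) and 58 lower (0.569%) by edgeR's quasi-likelihood test, with 1359 at an unadjusted p under 0.05. Without library as a term in the fit, 2 were called. Genes of either selection rule were not tested.

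Several genes had 0 UMIs in mural cells, and their folds are lower bounds against 3 counts over the mural group. Cells that met the endothelial rule were never counted as mural, so low endothelial RNA in mural cells is partly set by the class rules. Members that met the mural rule stayed on the endothelial side here. Ly6c1 was at 623.9 and 397.1 CPM in endothelial cells, at least 41.4-fold higher (edgeR adjusted p = 0.000817). Ctla2a, a protease inhibitor, was at 862.6 and 545.7 CPM, at least 57.2-fold higher (edgeR adjusted p = 0.0135). Igfbp3 was at least 35.6-fold higher and Tek at least 10.8-fold higher. Eltd1, an adhesion receptor of vessel sprouting, was at least 12.3-fold higher, Sdpr (cavin 2) at least 12.2-fold and Rasip1, which opens the vessel lumen, at least 7.66-fold.

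Of 17 VEGF, Tie and guidance genes, 3 were called higher (Kdr, Nrp2 and Tek), of 12 BMP and TGF-beta genes 1 (Acvrl1) and of 10 peptide and lipid receptor genes 1 (Ramp2), with 0 lower in each list. Kdr was at 591.0 and 145.4 CPM against 6.39 and 11.5 (2 UMIs in mural cells, edgeR adjusted p = 0.0325). Acvrl1, the ALK1 receptor of BMP9 and BMP10 in vessels, was at 144.9 and 129.1 CPM against 1 UMI (edgeR adjusted p = 0.0284). Ramp2, which makes the adrenomedullin receptor with Calcrl, was at 857.6 and 518.0 CPM against 57.5 and 68.7 (log2 fold change 3.56, SE 0.57, edgeR adjusted p = 0.0187). Of 23 barrier genes, 5 were called higher and 0 lower, Itm2a, Abcg2, Slc3a2, Ly6c1 and Pltp. Itm2a was at 765.5 and 436.3 CPM against 32.0 and 22.9 (log2 fold change 4.45, SE 0.43, edgeR adjusted p = 0.00219).

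The genes called lower in the endothelial cells included Myh11, Gucy1a3, Gucy1b3 and Il34. Myh11, the smooth muscle myosin, was at 113.6 and 6.54 CPM against 1042 and 332.2 (log2 fold change -5.09, SE 1.01, edgeR adjusted p = 0.0446). Gucy1a3 and Gucy1b3, the subunits of the nitric oxide receptor guanylate cyclase, were at 26.3 and 22.9 CPM against 345.2 and 297.8, and at 21.4 and 13.1 against 294.0 and 114.5. Il34, a ligand of the macrophage receptor Csf1r, was at 1.65 and 9.80 CPM against 217.3 and 263.5 (log2 fold change -5.27, SE 0.67, edgeR adjusted p = 0.00776).

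Without candidate doublets, 203 of 5052 genes were called higher (4.02%) and 260 lower (5.15%) by edgeR. Of 14 junction and surface genes, 8 were higher and 0 lower, among them Cd34, at least 31.1-fold, and Icam2, at least 23.6-fold. Of 12 BMP and TGF-beta genes, 4 were higher: Eng, Acvrl1, Bmpr2 and Tgfbr2. Eng, the endoglin co-receptor, was at 734.4 and 368.1 CPM against 57.5 and 68.7 (log2 fold change 2.86, SE 0.35, edgeR adjusted p = 0.00154). Of 20 transcription factors tested, 7 were higher (Erg, Fli1, Lmo2, Sox17, Sox18, Mecom and Elk3) and 2 lower (Foxc1 and the venous factor Nr2f2). Of 14 VEGF, Tie and guidance genes, Kdr, Tie1, Tek and Robo4 were higher and the angiopoietins Angpt1 and Angpt2 lower. In this fit both Tie receptors thus lay on the endothelial side, and the angiopoietins, ligands of Tek, on the mural side. With the candidate doublets kept, Tek was called and Tie1, Angpt1 and Angpt2 were not. Of 15 antigen-presentation and interferon genes, 7 were higher and 0 lower. Of the Notch genes tested, 9 in number, the ligand Dll4 was higher, at least 5.52-fold, while the ligand Jag1 and the target Heyl were lower. Of 19 digestion-response genes, 4 were lower (Fos, Egr1, Hspa1a and Dnajb1). Hspa1a was at 197.3 and 380.2 CPM against 281.2 and 2096.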

How the data were processed

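Droplet single-cell RNA counts of 2 pooled ciliary body libraries were used as deposited: whole-number UMI counts per gene and barcode, made by the authors with Cell Ranger 3.1.0 per the file headers. CASAVA 1.8, Cell Ranger and Seurat, with the builds mm10 and GRCm38, are named per the submitters' processing notes, and the annotation release is not given in the sources used here. The files held 4764 and 6220 barcodes with 22510387 and 30683405 UMIs over 33456 genes. The 2 deposited matrices of a library held 0 differing entries.

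The members, the 18 gene lists (251 genes, 248 in the files) and the tests were chosen with earlier results of these data known. Each class's UMI counts were summed per library (6 classes, 12 sums: the 3 endothelial groups, mural cells, fibroblasts and macrophages). They were fitted with edgeR 4.0.16 (TMM, filterByExpr, quasi-likelihood test, class and library as terms), in R 4.3.3. Calls needed a p below 0.05 after Benjamini-Hochberg adjustment over all genes tested and a log2 fold change of 1 or more in either direction, and the script was tested on simulated data. DESeq2 1.42.0 was an alternative. Samples within a group are the 2 libraries. With library as a term, the general shift between these pools is taken out. The p-values then measure how unevenly the classes differed between the pools, with the spread drawn from all 6 classes. Comparator cells had at least 3 of 8 markers of their class (at least 5 UMIs for mural cells, 10 for macrophages, 20 for fibroblasts and rods) and met 1 rule only.

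The genes named were, for each comparison and direction, the 10 largest called log2 fold changes that had 1 sign in both libraries and no fewer than 30 UMIs on the higher side, up to 4 called genes of each list, the genes of the selection rule, and list genes needed to describe a list. The text gives a part of them. Predicted, mitochondrial and ribosomal protein genes were left out. Members were clustered with scanpy 1.11.5 (counts scaled to 10000, 1500 variable genes, 15 principal components, 10 neighbours, Leiden resolution 1). Levels are CPM of summed counts. Reads of overlapping or antisense genes, such as Six3 and Six3os1, may be mixed between them, since the counting of strand is not stated. Promoters came from a RefSeq table (GRCm38.p6). Alternatives changed the count test, filters, block, classes, depth, mitochondrial limit, selection rule and candidate doublets.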

Additional observations from a re-analysis of the deposited data

How the results depend on the processing

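Calls depended on the fit. Genes called between the Prox1, Flt4 or Ccl21a group and the other endothelial cells numbered 0 with edgeR, 60 with DESeq2, 335 with no low-count filter, 9 with the group cut to 2 UMIs of Prox1 and Flt4 or 3 of Ccl21a, and, in alternatives chosen after seeing the data, 64 with Flt4 alone not counted and 51 when members above 20000 UMIs or meeting another class's rule were left out as well. For the Plvap split the 5 calls became 38 (DESeq2), 199 (no filter), 9 (endothelial and mural sums only), 29 (cells meeting another class's rule left out), 8 (mitochondrial limit of 15%), 97 (at least 4 of 8 genes and 10 UMIs), 8 (at least 2 Plvap UMIs against 0) and 44 (cells above 20000 UMIs left out, chosen after seeing the data). Against mural cells the 106 calls became 244, 588, 463 and 416 with DESeq2, no filter, other-rule cells left out and the stricter rule, and 612 without cells above 20000 UMIs. The share called higher there was 45.3%, and 58.5% with no filter. Without the replicate block, that is without library as a term, 0 genes were called for the Plvap split and 2 against mural cells. Both libraries hold every class, so library pairs the sums. The cause of these shifts was not tested.

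The share of endothelial cells was 2.98% in library 1 and 1.35% in library 2 without cells meeting another class's rule. In library 2 it was 1.61% under the stricter rule and 2.71% with at least 1000 genes. The Prox1, Flt4 or Ccl21a share of members was 26.1% and 19.5% with 2 UMIs required, and 27.3% and 20.2% after thinning. In the Plvap split, log2 fold changes changed sign for Bgn (-0.061 in cells with at least 2000 UMIs, -0.38 with at least 2 Plvap UMIs, -0.0069 with DESeq2, and from -0.21 to 0.21 when 1 library was left out) and Fos (-0.014 with endothelial and mural sums only, -0.063, -0.21 and -0.017 in those 3 settings, and from -0.31 to 0.24 when 1 library was left out). Jund in the Prox1 or Ccl21a cells was at -0.13 with candidate doublets and members above 20000 UMIs kept. Leaving out a library leaves no residual degrees of freedom, so it gave values and no test. Precision is limited by 2 pools and by 21 cells in the smallest class.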

Other observations

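Six3, a transcription factor of the eye field, was found in the endothelial cells at levels above those of other cells. It stood at 710.3 and 211.0 CPM in members of libraries 1 and 2, at 69.0 and 118.1 CPM in all other cells and at 82.8 and 118.4 CPM in rods. By cluster it was at 1826 CPM in the fenestrated capillary-like cluster and 1309 CPM in the barrier capillary-like cluster, against 0 in the lymphatic-like cluster and 33.4 CPM in the cluster of 46 cells with barrier markers and almost no Plvap. Without members that met another class's rule or held over 20000 UMIs, it was at 969.2 and 296.1 CPM in members. Its antisense neighbour Six3os1 stood at 233.3 and 107.3 CPM, and reads of the pair could not be told apart. Six3 was noticed after its values were seen and was not tested.

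Ihh, the hedgehog ligand made by choroidal endothelium, stood at 105.4 and 19.8 CPM in members against 0.0513 and 0.0357 CPM in all other cells.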
